A study of Bos taurus with 6 samples.

Results

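The genes described here are 6 defence genes against oxidative stress, measured by mRNA sequencing in bovine mammary epithelial cells that had been given a microRNA mimic. They were chosen by gene ID as NFE2L2 (ENSBTAG00000019255), HMOX1 (ENSBTAG00000015582), NQO1 (ENSBTAG00000020632), SOD1 (ENSBTAG00000018854), SOD2 (ENSBTAG00000006523) and CAT (ENSBTAG00000020980). All 6 were found among the 28522 gene rows of the deposited count tables, and all 6 were among the 13949 rows with enough counts to be tested. The symbols come from the list that defined the set. Neither the count tables nor the gene table used as reference pairs these IDs with symbols, so the pairing was not checked here.

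The study used cells that its growth protocol names MAC-T, an established bovine mammary epithelial line. One group of 3 samples had received a miR-199a-3p mimic, a synthetic RNA that acts in the cell as this microRNA does. The other group of 3 had received a negative control (NC) mimic. Both groups were transfected with 50 nM and collected 48 h later, so the controls share the transfection, and no untransfected cells were analysed here. Nothing in the labels says whether the 3 samples of a group came from separate cultures. All p-values thus reflect only the spread among the 6 samples, and that spread may be technical.

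NFE2L2 encodes NRF2, a transcription factor that the adaptor protein KEAP1 holds in check and marks for degradation. Oxidants and electrophiles release NRF2, which then activates genes with antioxidant response elements, among them HMOX1 and NQO1. NRF2 is thus regulated largely at the level of its protein, which mRNA counts do not measure. The superoxide dismutases turn superoxide into hydrogen peroxide, and catalase breaks hydrogen peroxide down. In the mammary gland of dairy cows these defences are studied in lactation and in mastitis, inflammation of the udder.

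Libraries held 16303257 to 23720655 counts. Expression is given as CPM, a count scaled to 1000000 reads on the rows tested in its library, with that total adjusted by the TMM factor of edgeR. Of all genes, 1643 of 13949 rows tested (11.8%) changed with the mimic at an edgeR adjusted p under 0.05. Of these, 1029 rose and 614 fell. With library size as the only scaling 768 rose and 1010 fell. NC replicate 2 stood apart from its group. Its correlation of log2 CPM across rows was 0.985 with each of the other NC libraries, against 0.993 between these. The correlations of NC replicates 1 and 3 with the mimic libraries, 0.986 to 0.988, were slightly above that 0.985. Those of NC replicate 2 with the mimic libraries were lower, at 0.980 to 0.981. NC replicate 2 was the highest or the lowest NC library for each of the 6 genes. Only the middle one of 3 libraries is neither, so this rank alone does not set it apart. In SOD2 it was lowest at 51.8 CPM, beside 51.9 CPM in NC replicate 3. Where leaving out NC replicate 2 changed a call or moved a gene's log2 fold change by more than 1.5 times, both values are given.

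Of the 6 genes, 2 rose with the mimic, 0 fell and 4 did not pass the threshold. The genes that rose were HMOX1, by 1.86-fold, and SOD2, by 1.35-fold. The background was 11.8% of rows called in either direction, 7.38% called as rises and 4.4% called as falls. A set of 6 genes is too small to read its share against these values. The median log2 fold change of the 6 genes was 0.11, beside -0.0043 over all rows tested. Without NC replicate 2 NFE2L2 also passed, while 24.5% of rows passed over the whole table. In bulk RNA, more RNA per cell and more cells that express a gene cannot be told apart.

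**Figure D1:**
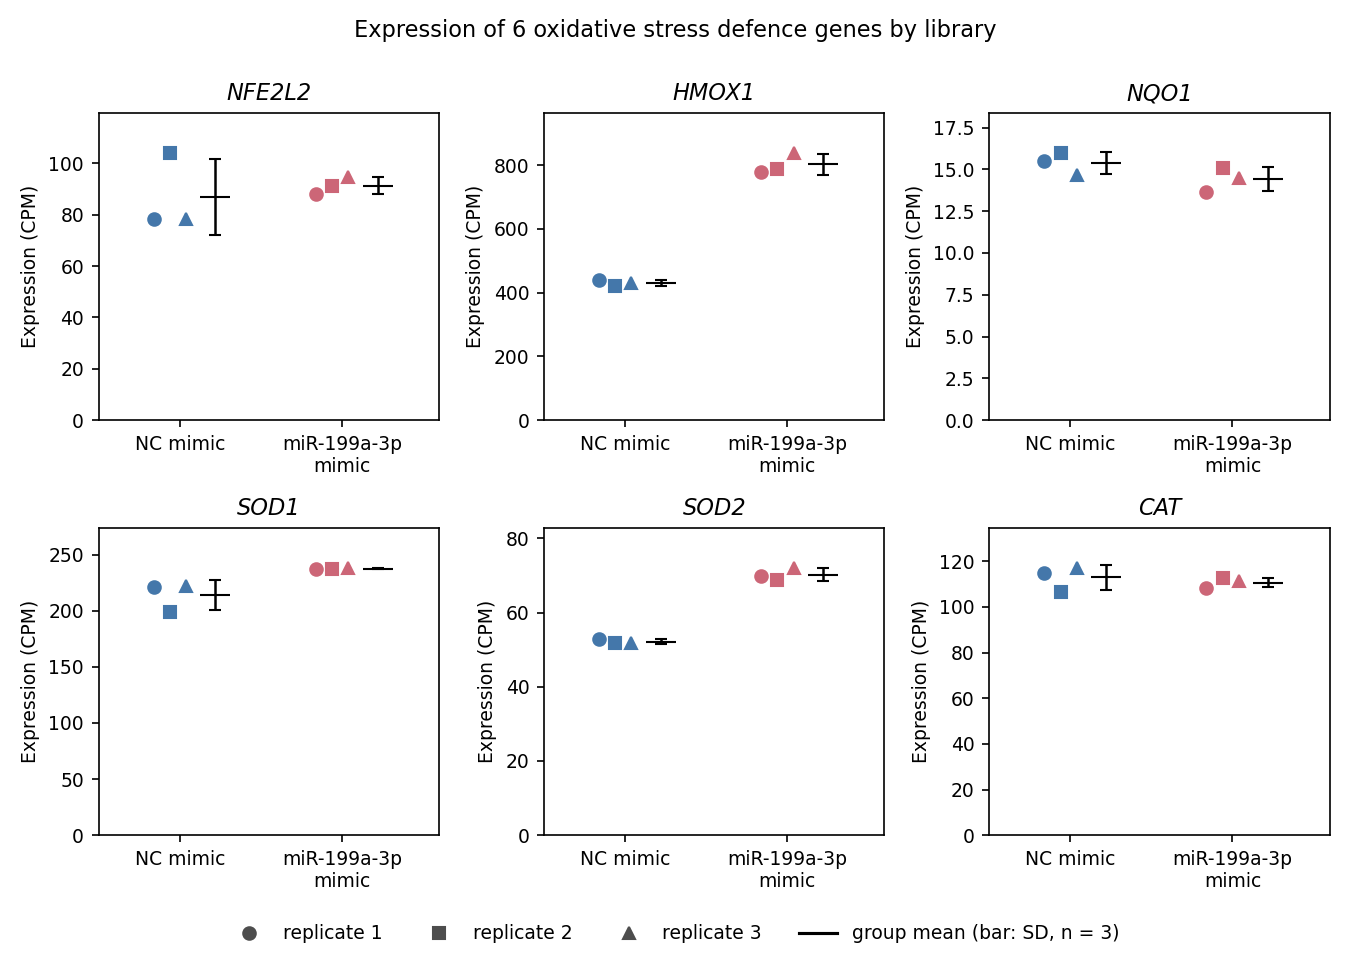
Expression in CPM (vertical axes, starting at 0) of each gene in the 3 NC and the 3 miR-199a-3p mimic libraries; symbols mark the replicate number, and the black bars give the mean and SD. HMOX1 and SOD2 are separated by group with little spread within it, whereas the NC libraries of NFE2L2 lie at 78.2, 104 and 78.5 CPM, on both sides of the mimic libraries.

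The mRNA of the regulator NFE2L2 stood at 78.2, 104 and 78.5 CPM in NC replicates 1, 2 and 3. In mimic replicates 1, 2 and 3 it stood at 88.2, 91.1 and 94.6 CPM. The mimic libraries lay above NC replicates 1 and 3 and below NC replicate 2, so the groups overlapped.

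NFE2L2 averaged 86.9 ± 14.8 CPM with the NC mimic and 91.3 ± 3.19 CPM with the miR-199a-3p mimic (SD, n = 3). This gave a log2 fold change of 0.07 ± 0.11 (SE), with a 95% interval of -0.18 to 0.32 (edgeR adjusted p = 0.72). The NC libraries varied by 17.1% (coefficient of variation), where counting error alone would give about 2.38%. In the mimic libraries these values were 3.50% and 2.43%. The wide NC spread of NFE2L2 thus came from 1 library and was far above counting error.

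Without NC replicate 2 the log2 fold change of NFE2L2 was 0.21 ± 0.06 (SE; edgeR adjusted p = 0.00926). Without NC replicate 1 or NC replicate 3 it was -0.0037 or -0.0056, as NC replicate 2 then weighed more. A fit that gave each library its own weight, chosen after the spread was seen, put NC replicate 2 at a weight of 0.246, the lowest of the 6 libraries. It gave a log2 fold change of 0.18 (limma-voom adjusted p = 0.0994). With library size as the only scaling the value was 0.02, and without mimic replicate 3 it was 0.04. Whether NFE2L2 mRNA differed between the groups therefore rests on NC replicate 2.

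HMOX1, which encodes the stress-inducible haem oxygenase that degrades haem to biliverdin, iron and carbon monoxide, is a classical NRF2 target. It stood at 441, 421 and 430 CPM in NC replicates 1, 2 and 3. The 3 mimic libraries, in the same order, stood at 779, 787 and 838 CPM. Every mimic library lay well above every NC library, and the 9 ratios of a mimic to an NC library ran from 1.77 to 1.99.

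HMOX1 averaged 431 ± 10.1 CPM with the NC mimic and 802 ± 31.9 CPM with the miR-199a-3p mimic (SD, n = 3). This gave a log2 fold change of 0.90 ± 0.05 (SE), with a 95% interval of 0.78 to 1.01 (edgeR adjusted p = 4.18e-05). The rise was 86.1%, with an interval of 71.7% to 102%. HMOX1 had the 11th lowest p-value of all 13949 rows tested. By size it ranked 152nd among the 1029 rises, whose median log2 fold change was 0.47. Its counts of 7126 to 15645 per library also made it the most deeply counted of the 6 genes.

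NQO1 encodes a quinone reductase and is, like HMOX1, widely used as a readout of NRF2. It stood at 15.5, 15.99 and 14.7 CPM in NC replicates 1, 2 and 3. Its values in mimic replicates 1, 2 and 3 were 13.7, 15.1 and 14.5 CPM. The groups overlapped, since mimic replicate 2 lay above NC replicate 3.

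NQO1 averaged 15.4 ± 0.667 CPM with the NC mimic and 14.4 ± 0.725 CPM with the miR-199a-3p mimic (SD, n = 3). The log2 fold change was -0.10 ± 0.09 (SE; edgeR adjusted p = 0.539). The 95% interval ran from -0.31 to 0.11, that is from -19.2% to 8.22%. A rise of the size seen in HMOX1 lies outside this interval. The log2 fold change was -0.06 without mimic replicate 1 and -0.15 with library size as the only scaling, and NQO1 did not pass in either fit. NQO1 had the fewest counts of the set, 243 to 377 per library, and its spread of 4.33% in NC and 5.03% in mimic libraries was no larger than the 5.61% and 6.13% that counting error gives. A difference inside this interval is not excluded by these libraries.

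The HMOX1 and NQO1 counts can be set against each other within a library, which removes any effect of scaling. The ratio of HMOX1 to NQO1 counts was 28.4, 26.3 and 29.3 in NC replicates 1, 2 and 3. In mimic replicates 1, 2 and 3 it was 57.1, 52.1 and 57.9. The groups did not overlap, and the ratio was 1.99-fold higher with the mimic. The exact permutation test (two-sided, n = 3 per group) gave p = 0.1, the smallest that 3 against 3 libraries allow, and 0.1 after adjustment over the 3 ratios examined. Such a ratio compares reads, which depend on transcript length, so its level says nothing about which mRNA was more abundant.

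**Figure D2:**
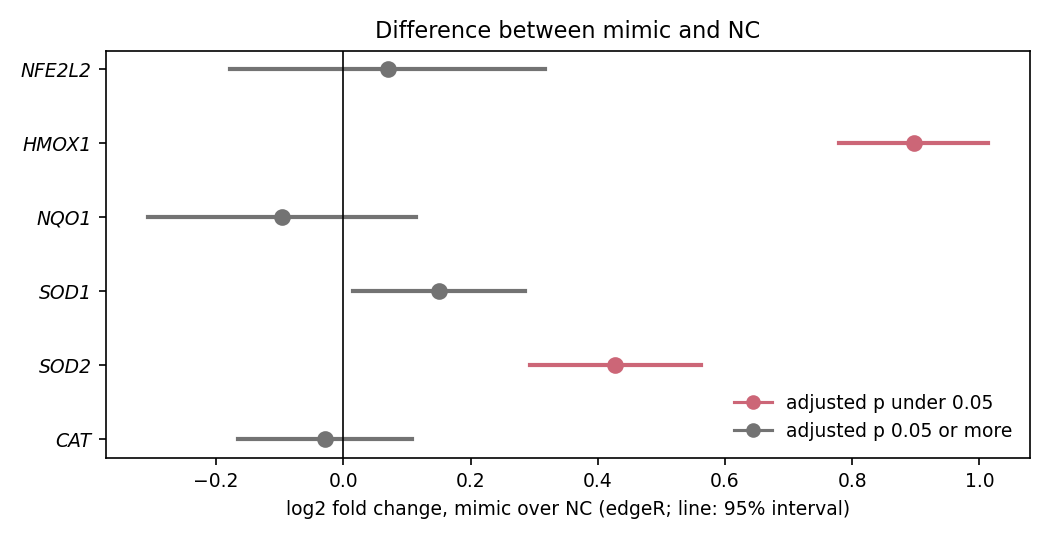
Log2 fold change of mimic over NC for each gene (horizontal axis; points are edgeR estimates and lines are 95% intervals), coloured by whether the adjusted p was under 0.05. HMOX1 at 0.90 and SOD2 at 0.43 stand clear of 0, the interval of SOD1 begins at 0.02, and those of NFE2L2, NQO1 and CAT span 0.

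SOD1 and SOD2 encode the cytosolic copper-zinc and the mitochondrial manganese form of superoxide dismutase. SOD2 is also known as a target of NF-kB and is induced by inflammatory cytokines in many cell types. SOD2 stood at 52.9, 51.8 and 51.9 CPM in NC replicates 1, 2 and 3. The 3 mimic libraries, in the same order, stood at 69.7, 68.9 and 72.1 CPM. The groups were far apart, with every mimic library at least 1.30 times every NC library.

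SOD2 averaged 52.2 ± 0.571 CPM with the NC mimic and 70.2 ± 1.68 CPM with the miR-199a-3p mimic (SD, n = 3). This gave a log2 fold change of 0.43 ± 0.06 (SE), with a 95% interval of 0.29 to 0.56 (edgeR adjusted p = 0.00311). Within the groups SOD2 varied by 1.09% and 2.40%, below the 3.04% and 2.77% of counting error. NC replicate 2, which differed elsewhere, lay with its group in SOD2. Among the 1029 rises, SOD2 ranked 579th by size and 188th by p-value. Its rise was thus of ordinary size among called rises of all count levels, and rows of like counts were not compared separately.

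SOD1 stood at 221, 199.1 and 222 CPM in NC replicates 1, 2 and 3. Its values in mimic replicates 1, 2 and 3 were 237, 237 and 238 CPM. The mimic libraries lay above all NC libraries, though NC replicates 1 and 3 were close below them and NC replicate 2 made up much of the gap.

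SOD1 averaged 214 ± 13.0 CPM with the NC mimic and 238 ± 0.717 CPM with the miR-199a-3p mimic (SD, n = 3). This gave a log2 fold change of 0.15 ± 0.06 (SE), with a 95% interval of 0.02 to 0.29. SOD1 did not pass the threshold (edgeR unadjusted p = 0.0327, adjusted p = 0.14). An unadjusted p under 0.05 in this test was common, reached by 3847 of the 13949 rows tested. Without NC replicate 2 the log2 fold change of SOD1 was 0.09 (edgeR adjusted p = 0.159). With library size as the only scaling it was 0.10 (edgeR adjusted p = 0.319). The groups did not overlap in 3 of the 6 genes (HMOX1, SOD1 and SOD2), each with the mimic higher. Over all rows tested 34.2% did not overlap, and 18.3% did so with the mimic higher.

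Within a library, the ratio of SOD2 to SOD1 counts was 0.239, 0.260 and 0.234 in NC replicates 1, 2 and 3. In mimic replicates 1, 2 and 3 it was 0.294, 0.290 and 0.302. The mitochondrial form thus took a 1.21-fold larger count relative to the cytosolic form in mimic libraries, with no overlap between the groups. The exact permutation test (two-sided, n = 3 per group) gave p = 0.1, the smallest possible, and 0.1 after adjustment over 3 ratios.

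CAT encodes catalase, the peroxisomal enzyme that acts on the hydrogen peroxide made by the dismutases. It stood at 115, 107 and 117 CPM in NC replicates 1, 2 and 3. The 3 mimic libraries, in the same order, stood at 108, 112 and 111 CPM. All mimic libraries lay inside the range of the NC libraries.

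CAT averaged 113 ± 5.49 CPM with the NC mimic and 111 ± 2.05 CPM with the miR-199a-3p mimic (SD, n = 3). The log2 fold change was -0.03 ± 0.06 (SE; edgeR adjusted p = 0.794). The 95% interval of -0.17 to 0.11 corresponds to a change of -10.9% to 7.76%. Rises as large as those of HMOX1 and SOD2 lie outside it. Without NC replicate 2 the log2 fold change was -0.07 (edgeR adjusted p = 0.351) and with library size as the only scaling it was -0.08. Leaving out NC replicate 1 gave -0.02, and leaving out NC replicate 3 or mimic replicate 1 gave -0.01. This small value thus moved by more than 1.5 times with each of these libraries, and CAT did not pass in any of the fits.

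The ratio of CAT to SOD1 counts was 0.519, 0.536 and 0.528 in NC replicates 1, 2 and 3. Its values in mimic replicates 1, 2 and 3 were 0.457, 0.474 and 0.466. The groups did not overlap, and the mean was 0.528 ± 0.00861 with the NC and 0.466 ± 0.00867 with the miR-199a-3p mimic (SD, n = 3). The exact permutation test (two-sided, n = 3 per group) gave p = 0.1, the smallest possible, and 0.1 after adjustment over 3 ratios. NC replicate 2, which was low in both genes, lay with its group in this ratio. The ratio with the mimic was 0.883 times that with NC. With 3 libraries per group none of the 3 ratios could have given a p under 0.05.

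**Figure D3:**
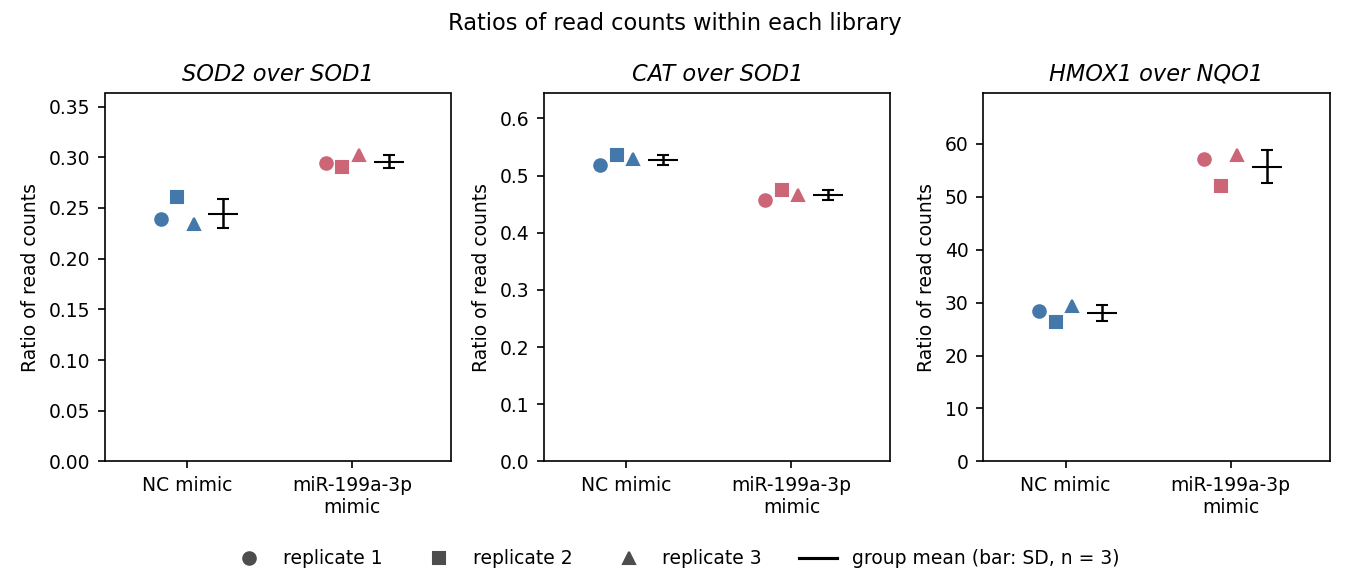
Ratio of the read counts of 2 genes within each library (vertical axes, starting at 0) for the NC and the mimic group, with replicate numbers as symbols and black bars for the mean and SD. All 3 ratios separate the groups, with SOD2 over SOD1 and HMOX1 over NQO1 higher and CAT over SOD1 lower in the mimic libraries. How often the ratios of other gene pairs separate the groups was not determined.

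The 6 genes covered a wide range of counts. In mean CPM over the 6 libraries HMOX1 lay above 98.5% of rows tested, SOD1 above 94.8%, CAT above 87.7%, NFE2L2 above 83.9%, SOD2 above 76.3% and NQO1 above 41.3%. These positions are not per transcript length, which the files do not give, so they do not order the mRNAs of the set by abundance. In absolute log2 fold change HMOX1 exceeded 97.4% of rows tested and SOD2 85.2%. SOD1 exceeded 46.7%, NQO1 31.7%, NFE2L2 23.4% and CAT 10.0%. Without NC replicate 2, NFE2L2 exceeded 60.6% of the 14126 rows then tested. In that fit SOD1 exceeded 31.3%, NQO1 25.8% and CAT 25.0%, so SOD1, NQO1 and CAT lay below the middle of all rows with and without this library, and NFE2L2 only with it.

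**Figure D4:**
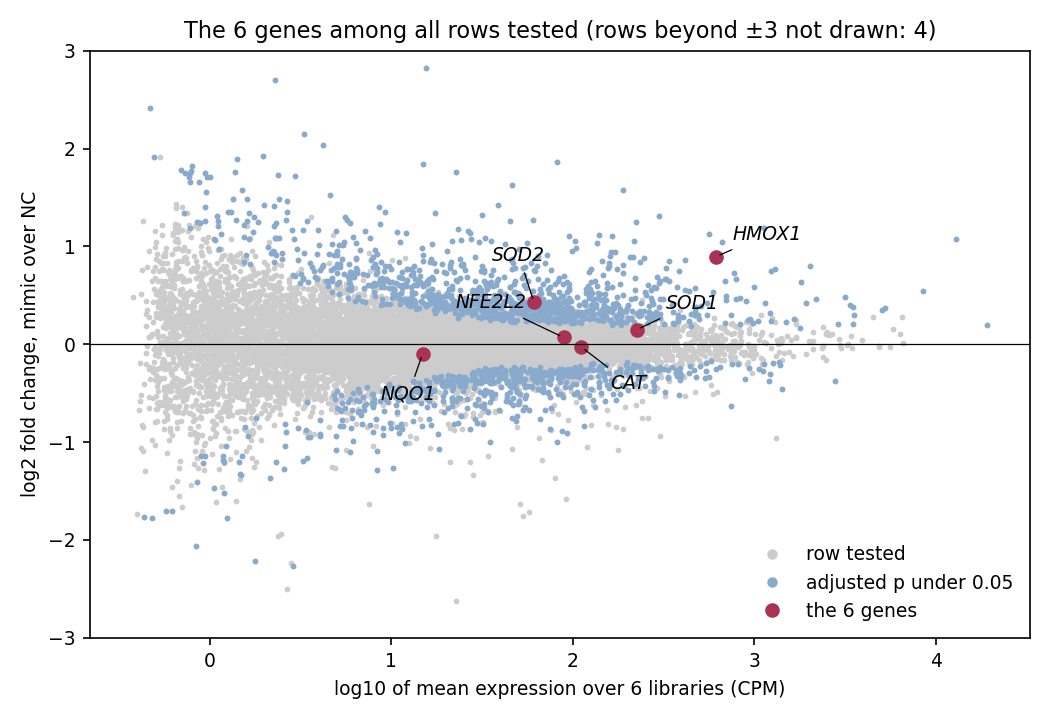
Log2 fold change of mimic over NC (vertical axis) against log10 of the mean CPM (horizontal axis) for the rows tested, with rows at an adjusted p under 0.05 in blue and the 6 genes in red; 4 rows beyond the vertical range are not drawn. HMOX1, at 0.90, lies at the upper edge among rows of high counts. SOD2, at 0.43, lies among the called rows, and the other members lie in the band of rows that did not pass.

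The pattern of HMOX1 over the 6 libraries was most like that of SOD2 among all 13948 other rows tested, by Pearson correlation of log2 CPM (r = 0.999). The row most like SOD2 was ENSBTAG00000039195, also at r = 0.999, which rose from 24.5 to 33.6 CPM (log2 fold change 0.46, edgeR adjusted p = 0.00522). These libraries fall into 2 groups, and any row with a clean step between them scores high. A correlation above 0.9 with HMOX1 was reached by 1039 rows and with SOD2 by 1035, so the value is a description only.

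The calls of HMOX1 and SOD2 held in each of the 17 alternatives of scaling, filter, tool, threshold and left-out library. Over these the log2 fold change of HMOX1 was 0.84 to 0.92 and that of SOD2 was 0.37 to 0.44. NQO1, SOD1 and CAT kept their sign and did not pass in any of the 17, with log2 fold changes of -0.15 to -0.06, 0.09 to 0.17 and -0.08 to -0.01. The alternative threshold of 0.01 reused the reported fit, so in it no sign could change and no gene could be added. NFE2L2, at -0.0056 to 0.21, was the only member of the set whose call or sign changed.

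**Figure D5:**
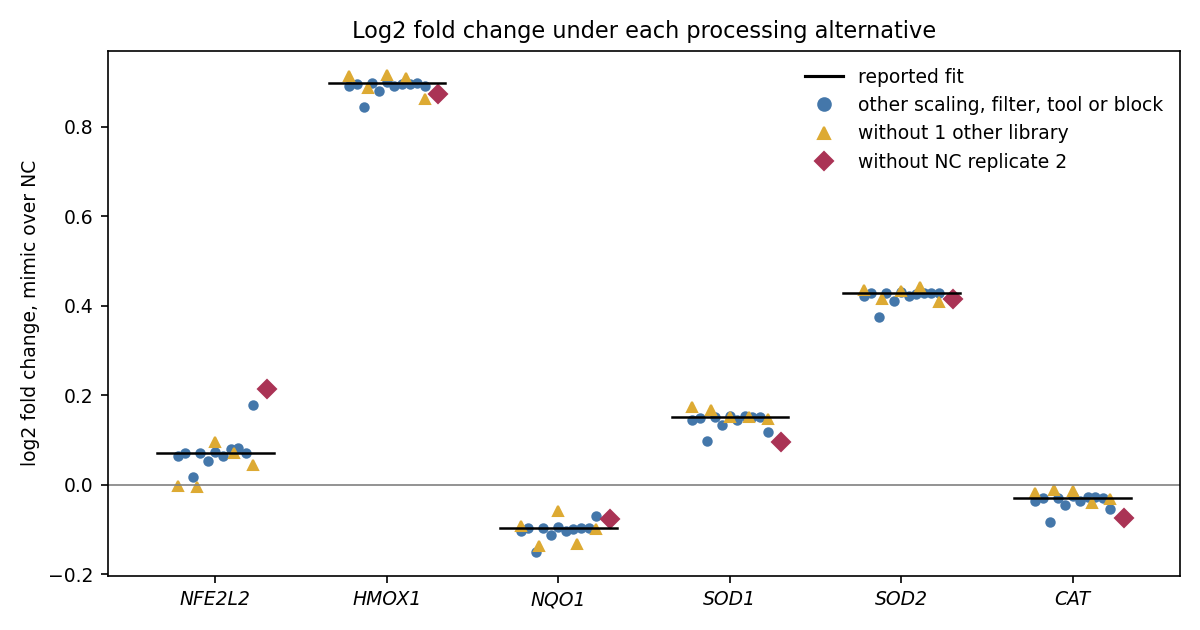
Log2 fold change of mimic over NC (vertical axis) for each gene in the reported fit (black line) and in the 17 alternatives, with the fit without NC replicate 2 as a red diamond. HMOX1 and SOD2 stay above 0.8 and 0.3, and NFE2L2 reaches 0.21 without NC replicate 2 and touches 0 without either of the other NC libraries.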

How the data were processed

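The submitters' processing notes name UMD3.1 as the genome build and HISAT2 and DESeq2 as tools, without roles. The authors deposited a table of unnormalized counts for each of the 6 samples. The counting tool, annotation and strand setting stay not given in the sources used here, so near-identical copies and antisense transcripts could not be told apart. In the RefSeq gene table of another assembly (ARS-UCD2.0), 0 annotated genes overlap any of the 6 symbols. That table has 37063 genes and holds 0 Ensembl IDs, so the other oxidative stress genes and the cell type markers, listed by symbol, could not be matched and are not analysed here. The epithelial identity of the cells was therefore not checked. Coordinates were used only for the overlap of annotated genes, and no sequences or miR-199a-3p sites were used.

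The test was edgeR's quasi-likelihood F test (version 4.0.16, R 4.3.3; two-sided, TMM, group as the only term), over all rows passing its default filter (minimum count 10, minimum total 15). P-values were Benjamini-Hochberg adjusted over all rows, with a threshold of 0.05. Intervals are 95%. Their standard error was derived from the log2 fold change and the F statistic. The degrees of freedom were edgeR's total, which adds those borrowed across rows to the residual ones. Counting error is the mean over a group of 1 over the square root of the count, and covers counting only. Alternatives used limma 3.58.1, DESeq2 1.42.0, other scalings and filters, the replicate number as a block, and each library left out; library weights were added after the data were seen. Ratios were compared with exact permutation tests in scipy 1.17.1. The procedure was also run on simulated counts that held no outlying library, so that run does not bear on the effect of NC replicate 2. All 6 members are named whatever their values. The row most like each of the 2 members with the largest change is given by ID. The members and lists were chosen with earlier results of these data known. Figures were drawn with matplotlib 3.10.9.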

Additional observations from a re-analysis of the deposited data

How the results depend on the processing

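For the set of 6 genes, 2 were called as rises and 0 as falls in the reported fit and in 16 of the 17 alternatives; without NC replicate 2 there were 3 rises. NFE2L2 changed sign without NC replicate 1 (-0.0037) and without NC replicate 3 (-0.0056), and passed without NC replicate 2 (0.21); these fits used fewer samples. Over all rows, 497 changed at an adjusted p under 0.01 (361 rose, 136 fell), and 2683 with library quality weights (1523 rose, 1160 fell), an alternative chosen after seeing the data. With library size as the only scaling 1010 rows fell and 43.2% of the calls were rises, against 62.6% in the reported fit, and the median of all rows was -0.06 on the log2 scale. Leaving out 1 library gave 472 to 3460 changed rows, 351 to 1861 rises and 121 to 1599 falls, highest without NC replicate 2 and lowest without mimic replicate 1; the cause was not tested. The 3 ratios kept their direction on a linear scale and without each library. That outcome was fixed in advance, as the groups did not overlap in any of the 3 ratios.

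A fit with a replicate block, taken from the replicate numbers, gave 1411 changed rows (909 rose, 502 fell), and HMOX1 (0.90) and SOD2 (0.43) were again the members called. Deviations of same-numbered libraries correlated at 0.00311 to 0.0536, which is too low to treat equal numbers as pairs. The shallowest member, NQO1, had 243 to 377 counts per library, which limits how small a difference could be seen. The settings fixed for other named genes were not run, as no symbol could be matched.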
